A study of Homo sapiens with 6 samples.

Results

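The genes described here encode the proteins of the cytosolic ribosome. Members were the rows of the gene tables whose symbol is RPL, RPS, RPLP or RPSP followed by digits and at most one of the letters A, X or L, together with RPSA and FAU. This rule took 82 of 62754 genes: 46 large subunit genes, 32 small subunit genes and 4 paralogs, RPL3L, RPL10L, RPL39L and RPS27L. The series examined HUDEP-2, an immortalised line of human erythroid progenitors, and asks how the MLL1 complex, which contains menin, takes part in repressing fetal hemoglobin. One group (n = 3 biological replicates) received a lentiviral shRNA labelled MEN1sh2 against MEN1, the menin gene, and the other (n = 3) a non-targeting control shRNA. All cells grew in StemSpan SFEM with 3 units/ml of erythropoietin, 50 ng/ml of stem cell factor, 1e-06 M of dexamethasone and 1 µg/ml of doxycycline. Both groups were selected in 2 µg/ml of puromycin, begun 24 h after infection and kept up for 48 h, and were profiled 72 h after transduction. With 1 hairpin, effects through MEN1 and through unintended targets cannot be told apart, and in bulk RNA fewer cells of a type and less RNA per cell cannot be told apart either.

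A ribosome joins a small subunit, which reads the mRNA, to a large subunit, which forms the peptide bonds, and the proteins are needed in fixed proportion. The mRNAs of these proteins typically begin with a run of pyrimidines led by a C, the terminal oligopyrimidine or TOP motif, through which mTOR and LARP1 control their translation and stability. Erythroid progenitors make ribosomes at a high rate and lower their synthesis as they mature, and inherited loss of one copy of any of a set of these genes causes Diamond-Blackfan anemia, a failure of red cell production.

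The start regions of a few members are shown to let the reader see the TOP sequence in genes that fell after MEN1 knockdown (RPL37A, RPS7, RPL10A), in genes whose level did not pass the test (RPL11, RPS27, RPL27A) and in the paralog that rose (RPS27L). Of the 2 listed RPL11 starts the downstream one is shown. Each line gives 85 bases before and 15 bases from the listed start onward in RefSeq on GRCh38.p14, 5′ to 3′ on the gene's strand. Capitals mark a C-led run of at least 5 pyrimidines, from the C nearest the listed start and within 10 bases of it. Pyrimidines just before that C stay in small letters, so the whole pyrimidine stretch can be longer than the capitals. The windows are chr2:216498759-216498858 for RPL37A, chr2:3575175-3575274 for RPS7, chr6:35468316-35468415 for RPL10A, chr1:23691721-23691820 for RPL11, chr1:153990677-153990776 for RPS27 and chr11:8682707-8682806 for RPL27A, all on the plus strand, and chr15:63157463-63157562 on the minus strand for RPS27L.
RPL37A: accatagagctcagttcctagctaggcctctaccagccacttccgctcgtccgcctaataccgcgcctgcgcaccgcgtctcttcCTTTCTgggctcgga
RPS7: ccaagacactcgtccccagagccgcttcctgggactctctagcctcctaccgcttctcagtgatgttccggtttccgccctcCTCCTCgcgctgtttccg
RPL10A: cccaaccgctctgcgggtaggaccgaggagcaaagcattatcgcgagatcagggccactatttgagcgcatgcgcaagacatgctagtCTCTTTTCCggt
RPL11: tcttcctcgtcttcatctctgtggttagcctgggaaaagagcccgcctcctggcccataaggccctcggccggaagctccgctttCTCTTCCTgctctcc
RPS27: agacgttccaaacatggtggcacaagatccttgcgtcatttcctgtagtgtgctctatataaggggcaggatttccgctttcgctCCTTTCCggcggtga
RPL27A: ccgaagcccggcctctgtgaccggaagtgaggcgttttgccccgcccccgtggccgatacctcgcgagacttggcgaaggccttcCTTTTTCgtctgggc
RPS27L: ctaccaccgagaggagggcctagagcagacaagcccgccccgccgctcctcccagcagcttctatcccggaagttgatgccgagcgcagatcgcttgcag

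Of the 82 members, 65 had an entry in this RefSeq table, and the 63 standard members among them had 78 listed starts. A C-led pyrimidine run of at least 5 bases lay within 10 bases of 65 of the 78 starts (83.3%), against 33.5% of all 35116 starts in the table. The run was present at the printed starts of genes that fell and of genes that did not pass the test, and no such run was found at the listed start of RPS27L. The letters CCGGAAG, searched on both strands of the 300-base window and known as a core of ETS family and GABPA sites, occurred at 33.3% of member starts and 10.3% of all starts. They are present in the printed windows of RPL11, RPL27A and RPS27L. TATAAA, the TATA box core, occurred on either strand at 6.41% of member starts and 11.5% of all starts, and CACGTG, the E-box that MYC and USF proteins bind, at 5.13% and 7.26%. AAGATGGCG, the core of the YY1 site, occurred at 6.41% and 1.75%, and CTCTTTCC, which can overlap the pyrimidine run, at 17.9% and 3.04%. These matches describe letters only.

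Abundance is given as TPM, a transcript's share of its library after correction for length, scaled to 1e+06 per library. Depth inferred from the deposited coverage was 18426388 to 35797507 read pairs per library, and mean coverage of the 78 standard members ran from 60.3 to 27168 reads per base. MEN1 itself fell from 39.3 ± 2.10 TPM (SD, n = 3) in controls to 6.54 ± 0.303 (SD, n = 3), 16.6% of control, with no overlap between the groups; an exact 2-sided permutation test gave p = 0.1, the smallest 3 against 3 libraries allow. Of 10 erythroid markers, 7 were higher after MEN1 knockdown and 0 lower (22.1% and 31.5% of all genes tested), among them the anion exchanger gene SLC4A1 and the globin chaperone gene AHSP, and all 10 were detected. Of 14 markers of other cells, 4 were listed at 0 in all 6 libraries and 10, these 4 included, were below 1 TPM in each. Their sum was 22.6 to 26.1 TPM after knockdown and 38.2 to 43.4 in controls, most of it the megakaryocyte and progenitor integrin ITGA2B. The part of these marker changes in the results below was not tested.

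Ribosomal protein transcripts took a smaller share of the library after MEN1 knockdown. All 82 genes together held 16.3%, 15.8% and 15.8% of TPM in the 3 MEN1 shRNA libraries, in replicate order, and 19.4%, 19.0% and 18.6% in control replicates 1, 2 and 3. The groups did not overlap, and the MEN1 shRNA mean of 15.9 ± 0.328% (SD, n = 3) was 83.7% of the control mean of 19.0 ± 0.402% (SD, n = 3). The 2 subunits were alike in this. The large subunit fell from 10.6 ± 0.110% to 8.92 ± 0.211% of TPM, 83.9% of control, and the small subunit from 8.41 ± 0.316% to 7.02 ± 0.153%, 83.5% of control. The ratio of summed large to small subunit TPM was 1.27 ± 0.0255 after knockdown and 1.27 ± 0.0401 in controls (SD, n = 3 each), a difference smaller than the spread between replicates.

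TPM is a share, and other abundant transcripts rose at the same time. Globin and mitochondrial genome transcripts together took 11.9 ± 0.537% of TPM after knockdown and 7.72 ± 0.292% in controls (SD, n = 3 each). With both left out of the total, ribosomal protein genes held 18.6%, 18.0% and 17.8% after knockdown and 21.1%, 20.6% and 20.3% in control replicates 1, 2 and 3. The groups were still apart, and the MEN1 shRNA mean was 87.7% of the control mean.

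**Figure D1:**
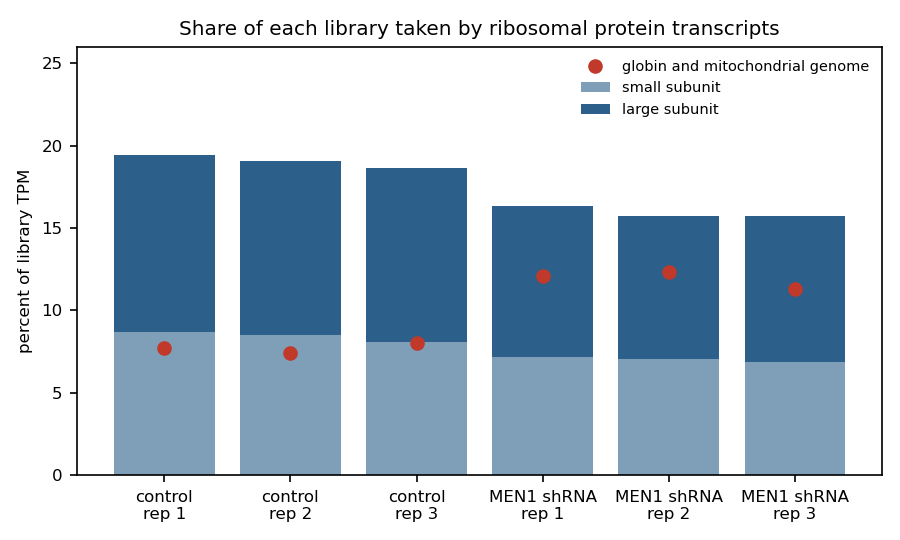
Percent of library TPM taken by large and small subunit genes (stacked bars) and by globin and mitochondrial genome transcripts (points) in each of the 6 libraries. The 3 MEN1 shRNA bars reach 15.8% to 16.3% and the 3 control bars 18.6% to 19.4%, while the points are higher in the MEN1 shRNA libraries.

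Gene by gene, 80 of the 82 members had enough signal to test, meaning 1 TPM or above in no fewer than 3 of the 6 libraries. Of the 78 standard members, 45 were lower after MEN1 knockdown, 1 was higher (RPL19) and 32 did not pass, in limma on log2(TPM + 1) with Benjamini-Hochberg adjustment across the 14294 genes tested and 0.05 as threshold. In the same comparison 31.5% of all genes tested were lower and 22.1% higher, against 57.7% and 1.28% of the 78. The large subunit had 28 of 46 genes lower, with a median log2 fold change of -0.25, and the small subunit 17 of 32, with a median of -0.22. The median over the 78 was -0.24 and that over all genes tested -0.07. All 3 MEN1 shRNA libraries lay below all 3 controls for 53 of the 78 (67.9%), against 35.9% of all genes tested.

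The shift was narrow: 49 of the 78 members had a log2 fold change between -0.4 and -0.1, and the SD over members was 0.21 against 0.68 over all genes tested, which include genes of low abundance. Each MEN1 shRNA library showed it, with a median log2 distance of members from the control mean of -0.20, -0.26 and -0.24 in replicates 1, 2 and 3. The number of members below every control was 59, 67 and 62 of 78 in the same order, against 45.4%, 45.9% and 44.8% of all genes tested.

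How many members counted as lower depended on the scaling. With median-of-ratios scaling, which sets the libraries so that the typical gene is level, 20 of the 78 were lower (25.6%), against 26.9% of all genes tested, so the count was at the background, and 1 was higher (background 26.3%). The member median was then -0.15 and that of all genes 0.01. With globin and mitochondrial genes left out, 34 were lower (43.6%, background 27.9%) and 1 higher (background 24.9%), with a median of -0.17. With quantile normalization 27 were lower (34.6%, background 27.0%) and 3 higher (background 26.1%), with a median of -0.09. From the deposited gene coverage in place of TPM, 43 were lower (55.1%, background 32.0%) and 0 higher (background 21.6%). The member median was below 0, and below that of all genes, in each of these settings. In all of them 14 of the 78 members were lower, among them RPL5, RPL9, RPL10A, RPL12, RPL31, RPL37A, RPS6, RPS7, RPS10, RPS14 and RPS15. The share of all genes tested that was lower in every setting was not counted, so these 14 have no background beside them. By TPM again, an adjusted p of 0.01 left 22 of the 78 lower (28.2%, background 23.3%). With no filter on low values 21 were lower (26.9%), against 11.3% of the 35241 genes then tested, most of which the filter leaves out.

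**Figure D2:**
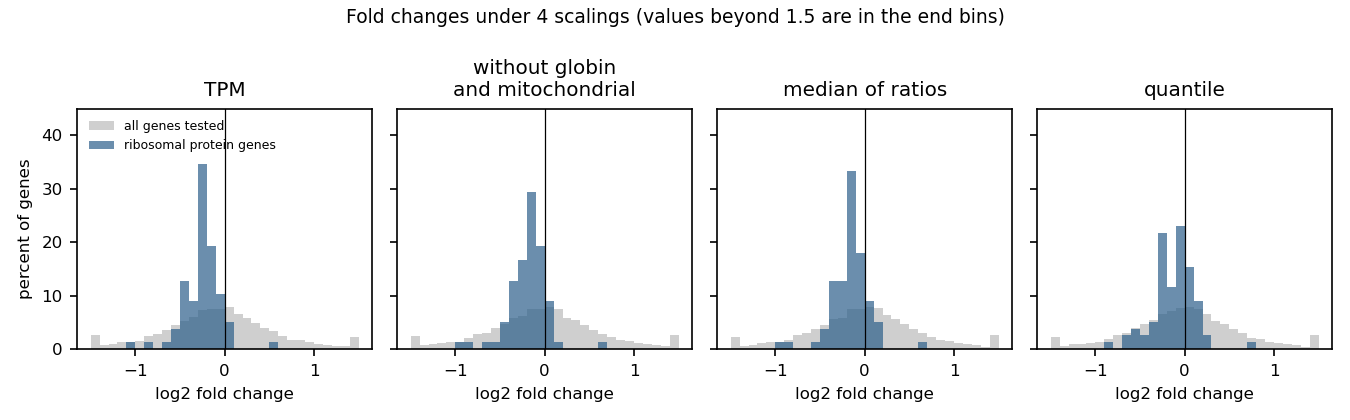
Distribution of log2 fold changes (x axis) for the 78 standard ribosomal protein genes (blue) and all genes tested (grey), in percent of genes (y axis), under 4 scalings. The blue distribution is narrower than the grey one in each panel, and its median is -0.24 by TPM, -0.17 without globin and mitochondrial genes, -0.15 by median of ratios and -0.09 by quantile normalization.

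Among small subunit genes, RPS7 (chr2:3575260-3580920 on hg38, plus strand), a Diamond-Blackfan anemia gene whose protein also binds MDM2, was at 1266, 1276 and 1466 TPM after knockdown, in replicate order as throughout, and 1984, 1900 and 1956 in controls. The groups did not overlap and the level was 68.6% of control (log2 fold change -0.55, SE 0.0706, limma adjusted p = 0.00049). Gene coverage gave a log2 fold change of -0.58. RPS15, whose tail reaches the decoding site, was at 1629, 1492 and 1474 TPM against 2164, 1993 and 2141 in controls, 73.0% of control (log2 fold change -0.46, limma adjusted p = 0.000771).

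RPS23, near the decoding center, and RPS2, at the mRNA entry, had falls of similar size with wider spread. RPS23 was at 1057 ± 200 TPM against 1459 ± 175 (SD, n = 3 each), and its log2 fold change of -0.48 passed by TPM (limma adjusted p = 0.0297) but not by median-of-ratios scaling (limma adjusted p = 0.074). Without MEN1 shRNA replicate 3, control replicate 1 or control replicate 2, the log2 fold change of RPS23 was -0.31, -0.44 and -0.41 and no longer passed. RPS2 was at 3315, 4289 and 4783 TPM against 6480, 5690 and 4763, and was the one gene among the 45 whose groups overlapped. Its log2 fold change of -0.46 (limma adjusted p = 0.0412) lost its call when either MEN1 shRNA replicate 1 or 2 or control replicate 1 or 2 was left out, with log2 fold changes of -0.31, -0.49, -0.35 and -0.44.

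Further small subunit genes that fell included RPS10 (log2 fold change -0.42), RPS14 (-0.41), RPS6 (-0.37) and RPS28 (-0.18). RPS28 did not pass without MEN1 shRNA replicate 2 or 3 or control replicate 1 or 2, with log2 fold changes of -0.18, -0.16, -0.16 and -0.17. RPS6, the protein that S6 kinase phosphorylates, was at 2389, 2162 and 2134 TPM after knockdown and 2895, 2921 and 2841 in controls, without overlap.

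Small subunit genes that did not pass by TPM included RPS3A, RPS24, RPS26, RPS27 and FAU, whose log2 fold changes lay between -0.09 and 0.04. Of these, RPS24 alone passed as lower by gene coverage. RPS18, the most abundant member at a control mean of 7930 TPM, was at 7019, 6537 and 6337 TPM against 8416, 8410 and 6965. Control replicate 3 lay just under the highest MEN1 shRNA library. Its log2 fold change was -0.25 (limma adjusted p = 0.0509 by TPM and 0.0135 by coverage), and it passed without MEN1 shRNA replicate 1 (-0.30) or control replicate 3 (-0.34). RPS20 was also low in control replicate 3, at 4438, 4342 and 2948 TPM in controls against 3376, 3202 and 3115. Its log2 fold change was -0.25 (limma adjusted p = 0.2), and without control replicate 3 it was -0.44 (limma adjusted p = 0.0029).

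Among large subunit genes, RPL9 (chr4:39452587-39458931, minus strand), a protein near the base of the P stalk, was at 986, 1476 and 901 TPM after knockdown and 1769, 1738 and 1774 in controls. The 3 controls were close together, while MEN1 shRNA replicate 2 stood above the other two of its group. Its log2 fold change was -0.69 by TPM (limma adjusted p = 0.01) and -0.48 by coverage (limma adjusted p = 0.00952).

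RPL37A (chr2:216498825-216579180, plus strand), a small zinc-binding protein, was at 426, 389 and 387 TPM against 598, 587 and 617. The 2 groups were each tight and far apart, at 66.7% of control (log2 fold change -0.58, limma adjusted p = 0.000151). RPL10A (chr6:35468401-35470785, plus strand), the protein of the mobile L1 stalk where spent tRNA leaves, was at 1843, 1659 and 1797 TPM against 2715, 2735 and 2274, at 68.6% of control (log2 fold change -0.54, limma adjusted p = 0.00141). RPL39, which lines the exit tunnel, was at 678, 562 and 491 TPM against 724, 704 and 997. Its groups were only just apart, and its log2 fold change of -0.48 (limma adjusted p = 0.0361) did not pass without MEN1 shRNA replicate 2 (-0.47), MEN1 shRNA replicate 3 (-0.37) or control replicate 3 (-0.32), nor by median-of-ratios scaling (limma adjusted p = 0.0828).

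RPL5 and RPL11, which bind 5S rRNA together and, when free of the ribosome, bind MDM2, are set side by side. RPL5 (chr1:92832013-92841924, plus strand) was at 1892, 1748 and 1714 TPM after knockdown and 2413, 2442 and 2527 in controls. Its groups were well apart, at 72.5% of control (log2 fold change -0.46, SE 0.0602, limma adjusted p = 0.000498). RPL11 (chr1:23691742-23696835, plus strand) was at 1921, 1820 and 1923 TPM against 2051, 2060 and 1949, at 93.5% of control, with all 3 MEN1 shRNA libraries just under the lowest control (log2 fold change -0.10, limma adjusted p = 0.18). The difference between the 2 genes was not tested.

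Of the P stalk, which recruits translation factors to the large subunit, RPLP1 fell and RPLP0 and RPLP2 did not pass. RPLP1 was at 1198, 1190 and 1124 TPM after knockdown and 1535, 1321 and 1385 in controls (log2 fold change -0.27, limma adjusted p = 0.013 by TPM and 0.11 by median-of-ratios scaling). RPLP0, the stalk's anchor, was at 4816, 4596 and 4316 TPM against 5007, 5027 and 5210, and RPLP2 at 2226, 2250 and 2030 against 2418, 2317 and 2307. In all 3 genes each MEN1 shRNA library lay below each control, as was the case for 35.9% of all genes tested. The log2 fold changes were -0.15 (limma adjusted p = 0.0831) for RPLP0 and -0.12 (limma adjusted p = 0.158) for RPLP2. RPLP0 passed without MEN1 shRNA replicate 1 (-0.19, limma adjusted p = 0.045).

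RPS27A and FAU, which are made as fusions with ubiquitin or a ubiquitin-like protein, did not pass by limma. RPS27A, ubiquitin joined to a small subunit protein, was at 1393, 1423 and 1130 TPM against 1407, 1478 and 1536 (log2 fold change -0.17). FAU was at 1228, 1305 and 1198 TPM against 1330, 1020 and 1291 (log2 fold change 0.04), and its groups overlapped fully. RACK1, a small subunit protein outside the rule, was at 2062, 1668 and 1301 TPM against 2394, 1632 and 1718 (log2 fold change -0.20, limma adjusted p = 0.432), with overlap.

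Large subunit genes at or near their control level were RPL30, RPL27A, RPL21 and RPL13, with log2 fold changes from -0.06 to 0.03. RPL27A was at 1204, 1177 and 1197 TPM after knockdown and 1200, 1186 and 1146 in controls, the 6 libraries all lying close together. RPL13A, the most abundant large subunit gene, was at 5528 ± 308 TPM against 6102 ± 104 (SD, n = 3 each), with no overlap and a log2 fold change of -0.14 (limma adjusted p = 0.101). Without MEN1 shRNA replicate 1 the value for RPL13A was -0.19 (limma adjusted p = 0.0371), and without control replicate 3 that for RPL13 was -0.31 (limma adjusted p = 0.016).

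**Figure D3:**
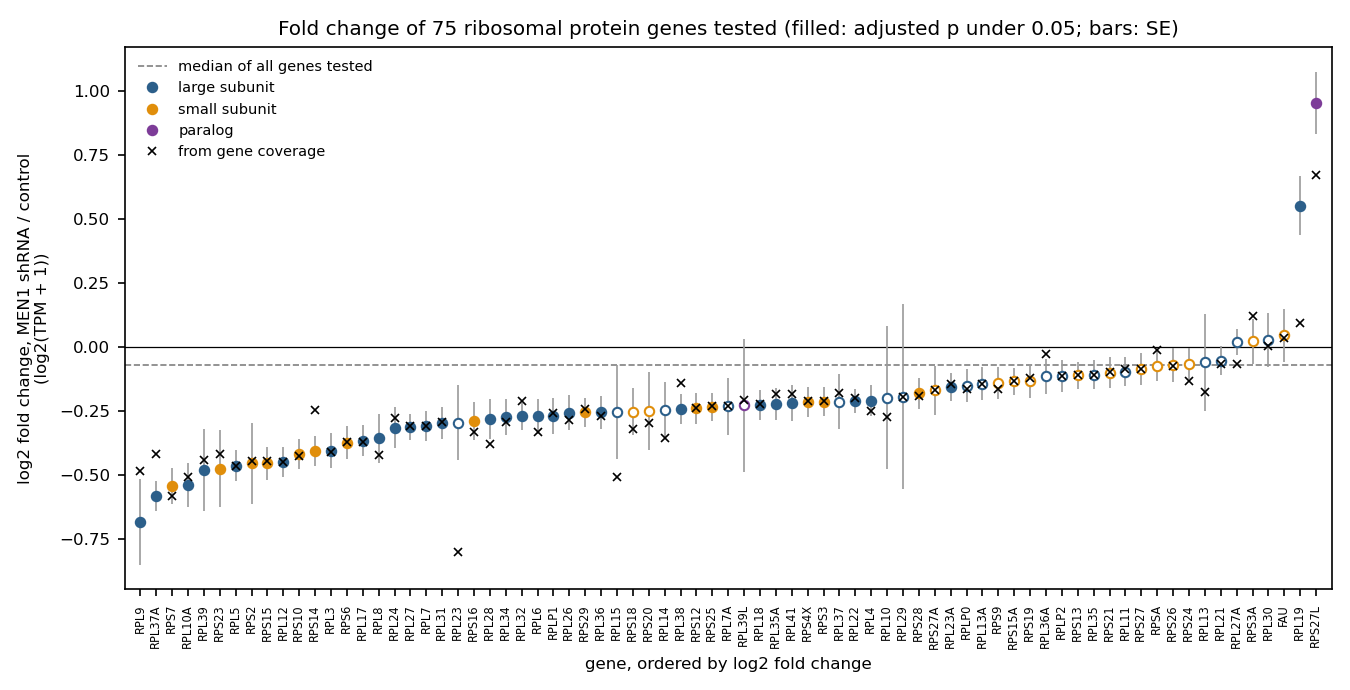
Log2 fold change, MEN1 shRNA over control, of 75 of the ribosomal protein genes tested, ordered from lowest to highest, with SE bars; filled points passed at an adjusted p of 0.05, and crosses give the value from gene coverage. RPL9 at -0.69 and RPL37A at -0.58 lie at the low end, RPL19 at 0.55 and RPS27L at 0.95 at the high end, and RPL23 and RPL19 have crosses far from their points.

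Measured against one another, by setting the members' median level in each library equal, 5 of the 78 were lower and 12 higher (background 16.4% lower and 38.1% higher on this scale). Those lower included RPL37A (log2 -0.30), RPS7 (-0.26) and RPL10A (-0.26). Those higher were led by RPL19 (0.83), FAU (0.33), RPL30 (0.31), RPS3A (0.30) and RPL27A (0.30), and 61 did not differ past the threshold from the group's common shift.

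RPL19, RPL23 and RPL15 were the 3 members whose fold change differed most between TPM and gene coverage. RPL19 (chr17:39200283-39204840, plus strand), a protein of an intersubunit bridge, was at 3005, 2839 and 2541 TPM after knockdown and 2139, 1614 and 1995 in controls, the highest rise of a standard member (log2 fold change 0.55, limma adjusted p = 0.00478). By coverage on the TPM scale the same libraries held 645, 617 and 601 against 652, 496 and 611, and the log2 fold change was 0.09 (limma adjusted p = 0.508). Coverage divided by TPM was 0.215, 0.217 and 0.237 after knockdown and 0.305, 0.307 and 0.306 in controls, so RPL19 rose in 1 measure and not in the other.

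RPL23 (chr17:38847860-38853764, minus strand), another MDM2-binding large subunit protein, had a larger fall by coverage than by TPM. Its TPM was 415, 542 and 651 after knockdown and 653, 663 and 628 in controls, with overlap through MEN1 shRNA replicate 3 (log2 fold change -0.30, limma adjusted p = 0.124, and -0.45 and 0.0167 without that library). Its coverage on the TPM scale was 171, 143 and 151 against 272, 278 and 262, with no overlap (log2 fold change -0.80, limma adjusted p = 0.000403). RPL15, a Diamond-Blackfan anemia gene, had log2 fold changes of -0.25 by TPM and -0.51 by coverage and passed in neither (limma adjusted p = 0.281 and 0.0804). Coverage is spread over all exonic bases of a gene while TPM also depends on which isoforms its reads were assigned to, and the part of isoform assignment in these differences was not tested.

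Replicates of one group disagreed for a few members. The ratio of the highest to the lowest library of a group exceeded 1.5 in 7 of the 78, RPS20, RPL23, RPL10, RPL29, RPL9, RPL13 and RPL15, while the median coefficient of variation was 5.02% after knockdown and 3.29% in controls. RPL29 was at 1309, 2487 and 2525 TPM after knockdown and 3105, 1367 and 2912 in controls, with MEN1 shRNA replicate 1 and control replicate 2 low and the groups overlapping. By coverage the same 2 libraries were low. RPL10 was at 1285, 1270 and 2063 TPM against 1377, 2597 and 1424, and here the high libraries were not high by coverage (366 in MEN1 shRNA replicate 3 and 466 in control replicate 2, against 432 to 535 in the other 4). Neither gene passed by TPM (limma adjusted p = 0.679 for RPL29 and 0.579 for RPL10).

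**Figure D4:**
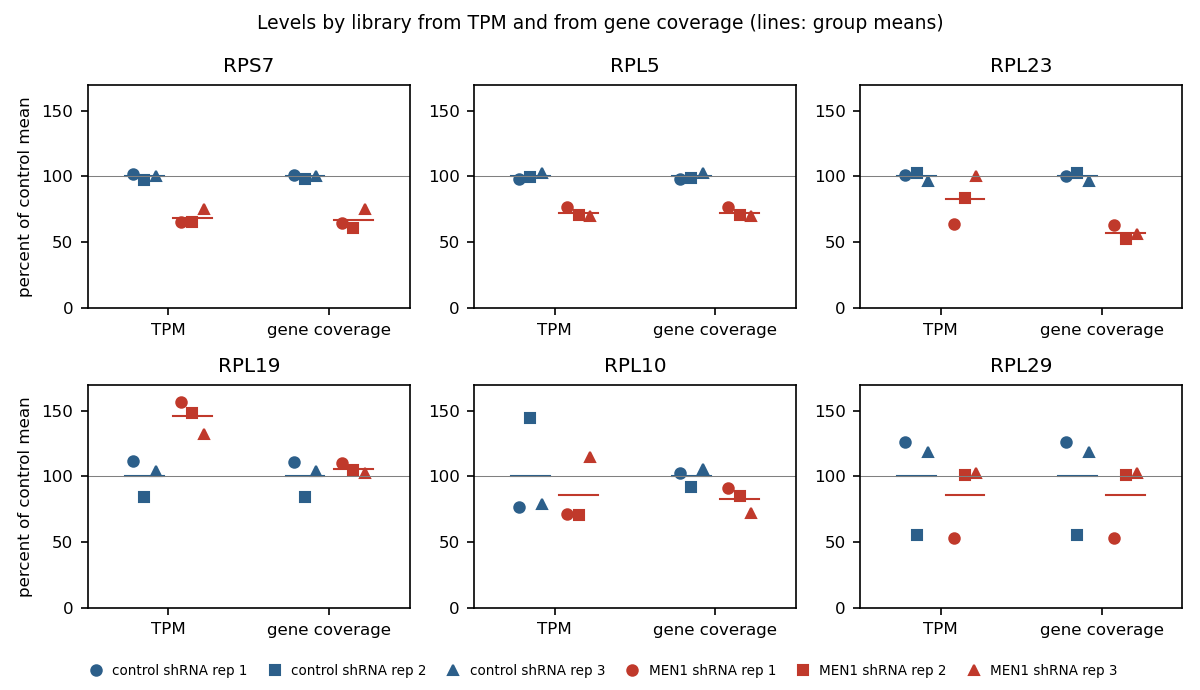
Level of 6 genes in each library, as percent of the control mean (y axis), from TPM and from gene coverage (x axis). RPS7 and RPL5 look alike in both measures, the RPL19 rise is present by TPM and not by coverage, RPL23 separates by coverage, and RPL10 and RPL29 split within groups by TPM.

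Of the 4 paralogs, only RPS27L was expressed at more than a few TPM. RPS27L (chr15:63125872-63158021, minus strand), a small subunit paralog of RPS27 known as a p53 target, was at 51.6, 64.1 and 65.0 TPM after knockdown and 28.1, 28.5 and 35.3 in controls. Every MEN1 shRNA library was above every control (25.8% of all genes tested were so), and the mean was 197% of control (log2 fold change 0.95, SE 0.122, limma adjusted p = 0.00046; 0.67 by coverage, limma adjusted p = 0.000965). Its standard counterpart RPS27 was at 3140, 3006 and 2967 TPM against 3390, 3247 and 3055, at 94.0% of control (log2 fold change -0.09, limma adjusted p = 0.275). The paralog stayed far below RPS27 in each library.

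RPL39L, known for its expression in male germ cells, was at 1.55, 1.22 and 0.810 TPM after knockdown and 1.38, 2.61 and 0.913 in controls, near the detection filter and with overlap (limma adjusted p = 0.492). RPL3L, the striated muscle paralog of RPL3, was at 0.0846, 0.319 and 0.393 TPM against 0.0372, 0.0895 and 0.0106 and was not tested. RPL10L, the testis paralog of RPL10, was listed at 0 in 4 of the 6 libraries and at 0.0138 and 0.0291 TPM in the other two. RPL3, the standard counterpart of RPL3L, fell (3853 ± 275 against 5098 ± 45.8 TPM, SD, n = 3 each; log2 fold change -0.41, limma adjusted p = 0.00176).

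Paralogs outside the naming rule moved in both directions by TPM. RPL22L1, the paralog of RPL22, fell from 149 ± 17.5 to 82.3 ± 8.70 TPM (SD, n = 3 each; log2 fold change -0.85, limma adjusted p = 0.000434), and RPL22 itself fell from 526 ± 9.48 to 454 ± 6.06 (log2 fold change -0.21, limma adjusted p = 0.00652, and 0.0817 by median-of-ratios scaling). RPL26L1 fell from 113 ± 5.47 to 89.8 ± 3.84 TPM (log2 fold change -0.33, limma adjusted p = 0.00305). RPL36AL rose from 454 ± 35.7 to 524 ± 27.0 TPM (log2 fold change 0.21, limma adjusted p = 0.0432), a call lost when any 1 of MEN1 shRNA replicates 2 and 3 and control replicates 2 and 3 was left out (0.20, 0.18, 0.16 and 0.20). RPL36AL also did not pass as higher by gene coverage (limma adjusted p = 0.0565) or by quantile normalization, but did by median-of-ratios scaling (limma adjusted p = 0.0187). RPL7L1 did not pass (log2 fold change -0.13, limma adjusted p = 0.124).

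**Figure D5:**
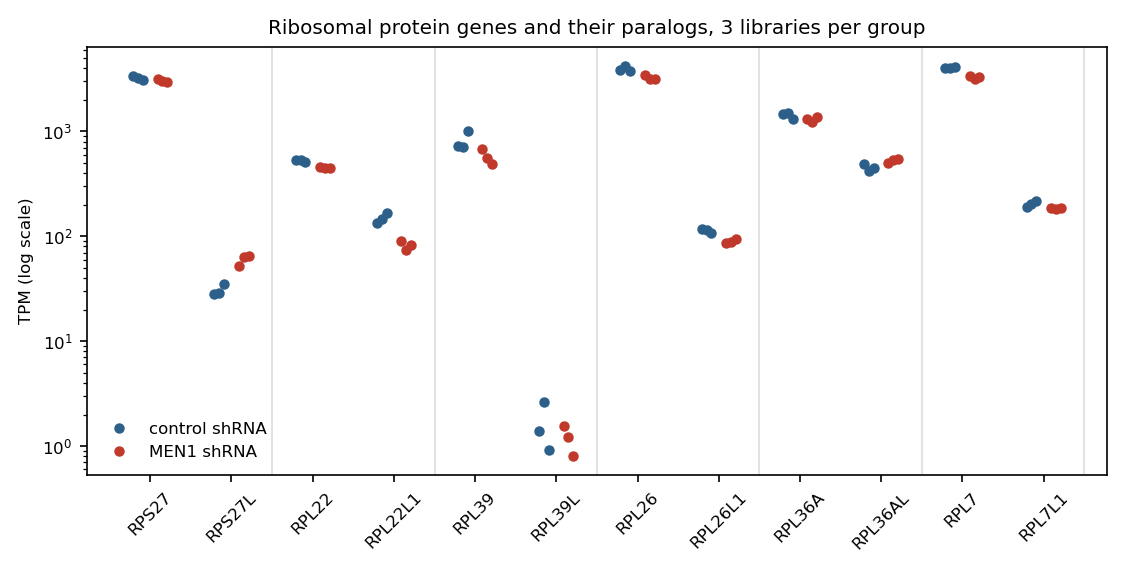
TPM (log scale, y axis) of standard ribosomal protein genes and their paralogs in each library (points). RPS27L is higher in the 3 MEN1 shRNA libraries (51.6 to 65.0 TPM) than in the 3 controls (28.1 to 35.3 TPM) and RPL22L1 is lower, while the RPS27 points of the 2 groups overlap.

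Of 20 genes linked to Diamond-Blackfan anemia, 11 fell and 0 rose (55.0% lower, background 31.5% lower and 22.1% higher). Their median was -0.24, beside -0.24 for the 78 members. Among the 11 that fell were RPS7, RPS10, RPS28, RPS29, RPL5, RPL18, RPL26, RPL27, RPL31 and RPL35A. All 20 had negative log2 fold changes by TPM, as did 73 of the 78 members and 7905 of the 14294 genes tested. The negative ones were 17 of the 20 by median-of-ratios scaling and 13 by quantile normalization, against 7066 and 7197 of all genes tested. By median-of-ratios scaling 6 of the 20 were lower (30.0%, background 26.9%). RPS19, the gene most often mutated in the disease, was at 943, 942 and 860 TPM after knockdown and 1042, 938 and 1033 in controls, with overlap (log2 fold change -0.13, limma adjusted p = 0.128). RPS26, the least abundant standard member, was at 298, 269 and 255 TPM against 286, 288 and 287, and the lowest-to-highest range of its MEN1 shRNA libraries spanned the controls.

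Genes that act on ribosomal proteins or on their mRNAs were counted beside the members. Of 12 factors listed as chaperones or partners of ribosomal proteins, 9 fell and 0 rose (background 31.5% lower and 22.1% higher). By median-of-ratios scaling 8 fell (background 26.9%). PDCD2L and PDCD2, which escort RPS2, fell from 41.5 ± 1.17 to 19.6 ± 3.95 TPM and from 109 ± 2.55 to 66.2 ± 5.44 TPM (SD, n = 3 each), with log2 fold changes of -1.06 and -0.71 (limma adjusted p = 0.000449 and 0.000156). GRWD1, the RPL3 chaperone, had a log2 fold change of -0.55, and HEATR3, which carries RPL5 and RPL11, one of -0.71. AAR2, better known as a spliceosome assembly factor, fell by 0.47 on the log2 scale. TSR2, the RPS26 chaperone, had a log2 fold change of 0.00, NAP1L1 one of 0.22 and LTV1 one of -0.11, and none of the 3 passed by TPM. By gene coverage NAP1L1 passed as higher (log2 fold change 0.18, limma adjusted p = 0.0129).

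Of 18 other mRNAs known to carry a TOP motif, 5 fell and 1 rose, with a median of -0.11 (27.8% and 5.56%, backgrounds 31.5% and 22.1%). NPM1, the nucleolar assembly chaperone, was at 759, 689 and 555 TPM after knockdown and 2812, 3298 and 3418 in controls, 21.0% of control (log2 fold change -2.26, limma adjusted p = 2.49e-05). The initiation factor genes EIF4B and EIF3E fell to 69.3% and 78.6% of control (log2 fold changes -0.53 and -0.35, limma adjusted p = 0.00041 and 0.00175). The elongation factor genes EEF1A1 and EEF2 did not pass (log2 fold changes -0.11 and -0.12), and EEF1D rose by TPM (0.20, limma adjusted p = 0.0303). EEF1D passed by median-of-ratios scaling (limma adjusted p = 0.00803) but not by gene coverage (0.13, limma adjusted p = 0.0575).

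Of 14 regulators of ribosomal protein synthesis, 3 fell and 1 rose (21.4% and 7.14%, backgrounds 31.5% and 22.1%), and 2 fell and 6 rose by median-of-ratios scaling (backgrounds 26.9% and 26.3%). MYC was at 91.9, 63.7 and 66.8 TPM after knockdown and 227, 240 and 231 in controls (log2 fold change -1.65, limma adjusted p = 6.4e-05). EIF4EBP1, the translation repressor that mTOR switches off, fell to 36.6% of control (log2 fold change -1.45, limma adjusted p = 5.22e-05). MTOR had a log2 fold change of -0.20 (limma adjusted p = 0.0205) and did not pass by median-of-ratios scaling (-0.11, limma adjusted p = 0.117). LARP1, which binds the TOP sequence, rose from 217 ± 6.48 to 303 ± 13.5 TPM (SD, n = 3 each; log2 fold change 0.48, limma adjusted p = 0.000308). YY1 (-0.11) and GABPA (0.15) did not pass by TPM. GABPA passed as higher by gene coverage (0.16, limma adjusted p = 0.0491) and by median-of-ratios scaling (0.24, limma adjusted p = 0.0193), and YY1 passed in neither.

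Processed pseudogenes are near-identical copies that can share reads with a member. Of the rows of the tables, 1592 were named as pseudogenes of 78 of the members, and for 17 members they held over 5% of the joint TPM. RPL41 is the one with over 20%: RPL41P1 was at 1751 ± 151 TPM after knockdown and 1896 ± 132 in controls, beside 1896 ± 116 and 2208 ± 115 for RPL41 itself (SD, n = 3 each), so the fall of RPL41 (log2 fold change -0.22, limma adjusted p = 0.0296) is uncertain and did not pass when the rows were summed (limma adjusted p = 0.0767). It was also lost without MEN1 shRNA replicate 2 or 3 or control replicate 1 or 2, with log2 fold changes of -0.17, -0.22, -0.20 and -0.20. With each member summed with its pseudogene rows, 43 of the 78 were lower in place of 45. The share of all genes lower in that fit was not counted, and by TPM it was 31.5%.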

How the data were processed

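Poly(A) RNA of 6 libraries, 3 per group, was measured, with groups and replicates taken from the sample titles. The submitters' processing notes name FastQC, Trimmomatic, STAR 2.7.1a, Picard 2.20.4, StringTie 2.0.4 and the build hg38, without saying which made which file, and the annotation is not given in the sources used here. Per the labels' protocols, the library kit was directional; whether counting used strand is not given in the sources used here. The deposited TPM values, made by the authors, sum to 1e+06 in each library. The deposited FPKM values are scaled for gene length and depth, per the file headers, and were used as an alternative. The deposited coverage, named so in the file headers, is a per-base mean for each gene that moves with depth. In control replicate 2, 3 deposited TPM or coverage values of 2 genes were slightly below 0 and were set to 0. Depth was inferred: coverage times length was most often 302, then 604, in genes with few reads, taken as 1 and 2 read pairs.

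The test took the 14294 genes that reached 1 TPM in 3 or more of 6 libraries. The model was limma (version 3.58.1, R 4.3.3; lmFit, then eBayes with trend) on log2(TPM + 1), MEN1 shRNA minus control shRNA, 2-sided, with Benjamini-Hochberg adjustment over all of them and a threshold of 0.05. Fold changes are on that scale, which understates low genes. For the coverage alternative, coverage was divided by the library's aligned bases and put on its TPM scale. The fit was tested on simulated data. The members, gene lists and rules were chosen with earlier results of these data known. Named were MEN1, the paralogs with their counterparts, the 5 highest and 5 lowest fold changes per subunit, the 3 most and 3 least abundant members, RPLP0, RPLP1, RPLP2, RPS27A, FAU, RPL5, RPL11, RPS19, and at most 3 genes per outside list. RPL12, RPL31, RPS6, RPS10, RPS14, RPL15, RPL29, GRWD1, HEATR3 and other genes printed beyond these rules were chosen after their values were seen. Some genes that these rules take are not reported here. Alternatives were the pseudocount, filter, unit, scaling, pseudogene and overlap sums, array weights, replicate block, threshold and leaving out each library. No name is given for 20393 genes. Plots used Python 3.11.15 and matplotlib 3.10.9.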

Additional observations from a re-analysis of the deposited data

How the results depend on the processing

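Of 171 comparisons of the counts, medians and sums with an alternative, 147 stayed within the replicate spread or 1.5 times the value reported, and of 1156 comparisons of 58 named genes 982 changed neither sign nor call, 98 lost a call, 21 gained one and 55 changed sign. Members lower (45 as reported, 28 large and 17 small subunit) were 21, 13 and 8 with no filter on low values (11.3% of all genes then tested were lower), 20, 12 and 8 by median of ratios, 22, 13 and 9 at an adjusted p of 0.01 (23.3% of all genes), and 27 and 15 (all and large subunit) by quantile normalization. After centring on the members they were 5, 3 and 2 with 13 higher, by construction. Members higher (2 with RPS27L) were 4 by quantile normalization and 1 by coverage. The member median was -0.153 by median of ratios, -0.174 without globin and mitochondrial genes, -0.0865 by quantile normalization and 0.0405 when centred. The log2 ratio of the member sum (-0.256) was -0.224 by FPKM, -0.169 by median of ratios and -0.189 without globin and mitochondrial genes. Except for centring, the cause was not tested. Leaving out 1 library at a time gave 6577 to 7542 genes past the threshold, 37 to 49 members lower (24 to 30 large, 13 to 19 small), 2 to 2 higher, 20 to 25 listed genes, a member median of -0.261 to -0.220, a log2 sum ratio of -0.274 to -0.241 and MEN1 at -2.46 to -2.38. The sample titles do not say whether equal replicate numbers pair the libraries. No shared effect of the number was seen (correlation of deviations 0.017, -0.027 and -0.012 for numbers 1, 2 and 3). With a replicate block 7012 genes passed, with 37 members lower. In the fits without 1 library or with the block, genes lower were not counted apart from genes higher. The member counts there have no background beside them, while 31.5% of all genes tested were lower as reported.

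Some named genes changed sign. Centred, which moves every gene up by the members' common fall, log2 fold changes were RACK1 0.0867, RPL10 0.0834, RPL11 0.185, RPL13 0.222, RPL13A 0.138, RPL15 0.0274, RPL21 0.228, RPL22 0.0687, RPL23A 0.126, RPL29 0.0862, RPL39L 0.0537, RPL41 0.0623, RPL7L1 0.147, RPLP0 0.13, RPLP1 0.0121, RPLP2 0.167, RPS12 0.0418, RPS18 0.0282, RPS19 0.148, RPS20 0.0305, RPS24 0.215, RPS26 0.211, RPS27 0.194, RPS27A 0.111 and RPS28 0.0993. By median of ratios they were RPL13 0.028, RPL21 0.0337, RPS24 0.0214, RPS26 0.0166 and RPS27 0.000124. By quantile normalization they were RPL11 0.119, RPL21 0.143, RPLP0 0.0628, RPLP2 0.0605, RPS20 0.000729, RPS24 0.144 and RPS27 0.133. Without globin and mitochondrial genes they were RPL13 0.00694, RPL21 0.0126 and RPS24 0.000286. RPL27A was at -0.0671 by coverage and RPS3A at -0.00246 with pseudogenes. Leaving out 1 library gave FAU -0.0765 to 0.115, RPL10 -0.429 to 0.0983, RPL13 -0.305 to 0.0852, RPL27A -0.000378 to 0.0324, RPL29 -0.575 to 0.116, RPL30 -0.0382 to 0.148, RPL39L -0.433 to 0.0241 and RPS3A -0.0612 to 0.0988. The coverage alternative was chosen after seeing the data. RPL3L and RPL10L were too low to test.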
